A study of Mus musculus with 8 samples.

Results

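The 9 genes described here mark intermediate progenitors of the embryonic cortex or switch on as such cells turn into neurons: Eomes, Insm1, Neurod1, Neurod4, Btg2, Hes6, Gadd45g, Nhlh1 and Dll3. They were chosen by name, each symbol matched 1 of the 43629 Ensembl gene IDs in the deposited tables, and all 9 were among the 15382 genes with enough reads to be tested. The libraries came from dorsal forebrain of male E12.5 mice of mixed background with C57BL/6J. The Sufu-cKO group, 4 samples numbered Mut_295, Mut_317, Mut_337 and Mut_340, had the genotype Emx1-cre/+;Sufu-fl/fl, so that the floxed part of Sufu is removed where Emx1 drives cre, in progenitors of the dorsal telencephalon and their progeny. The control group, 4 samples numbered Cont_294, Cont_345, Cont_365 and Cont_370, was Sufu-fl/fl or Sufu-fl/+, with no cre named, and the labels do not say which sample had which. Floxed Sufu was thus carried by both groups. SUFU restrains hedgehog signalling by holding back the GLI transcription factors.

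Intermediate progenitors arise from radial glia at the ventricle, move away from it, and divide to give rise to excitatory neurons of the cortex. In this lineage the transcription factor PAX6 and the proneural factors of the NEUROG family act upstream of EOMES, the T-box factor by which intermediate progenitors are recognised. Factors of the NEUROD and NHLH families and several cell cycle brakes follow. Apart from Eomes, most of these genes are also used by neurogenic progenitors elsewhere in the brain, the ventral telencephalon included.

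Sequencing depth lay between 27514357 and 34878838 counts per sample. Levels are CPM, each count scaled to the same library total with TMM factors. Sufu averaged 40.6 ± 4.64 CPM in Sufu-cKO samples and 112 ± 9.13 CPM in control samples (SD, n = 4 each), with no overlap. All 8 genes listed as markers of dorsal telencephalon, Eomes among them, were detected. Of these 2 rose and 4 fell, and their sum was 1778 to 2067 CPM in Sufu-cKO and 2034 to 2308 CPM in control samples. Over all tested genes, edgeR's quasi-likelihood test called 11.0% at a Benjamini-Hochberg adjusted p under 0.05, 5.34% higher and 5.64% lower in Sufu-cKO.

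Of the 9 intermediate progenitor genes, 2 rose in Sufu-cKO samples (Neurod4 and Btg2), 0 fell and 7 did not pass the test, against the background of 11.0% of genes called. By an unadjusted p under 0.05, 2 were higher and 1 was lower, against 22.5% of all genes in either direction. DESeq2 called 2 higher and 1 lower, and limma-voom 2 higher and 0 lower. Of all 15382 tested genes, DESeq2 called 2124 and limma-voom 1681 in either direction. The median log2 fold change, Sufu-cKO over control, was 0.14 over the 9 genes and 0.01 over all tested genes, with 7 genes above 0 and 2 below. Groups did not overlap for Neurod4 and Btg2, against 16.2% of all genes without overlap (8.33% higher and 7.86% lower in Sufu-cKO). Summed over the 9 genes, levels ran from 841 to 961 CPM in Sufu-cKO and from 774 to 899 CPM in control samples, so the ranges overlapped. In whole tissue, a change in the number of cells that express a gene and a change in RNA per cell cannot be told apart.

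**Figure D1:**
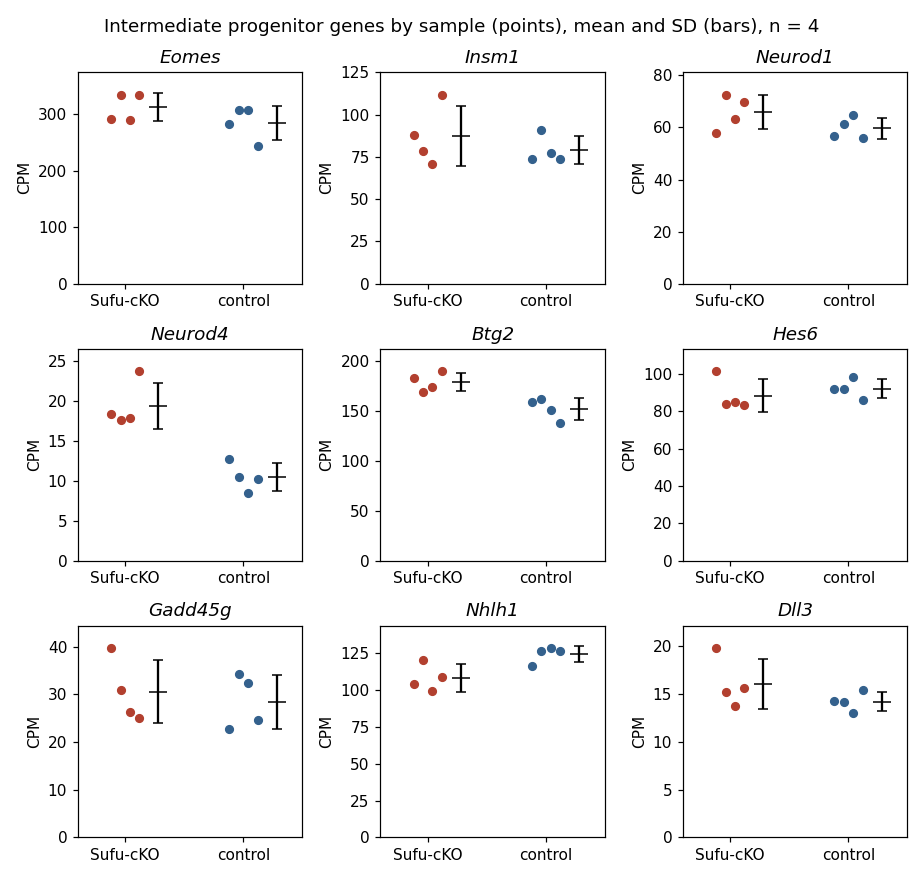
Level of each of the 9 genes in CPM (vertical axes, from 0) in the 4 Sufu-cKO and the 4 control samples. Points are samples, and the bars beside them give the mean and SD. Neurod4 and Btg2 are the 2 genes whose groups do not overlap.

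**Figure D2:**
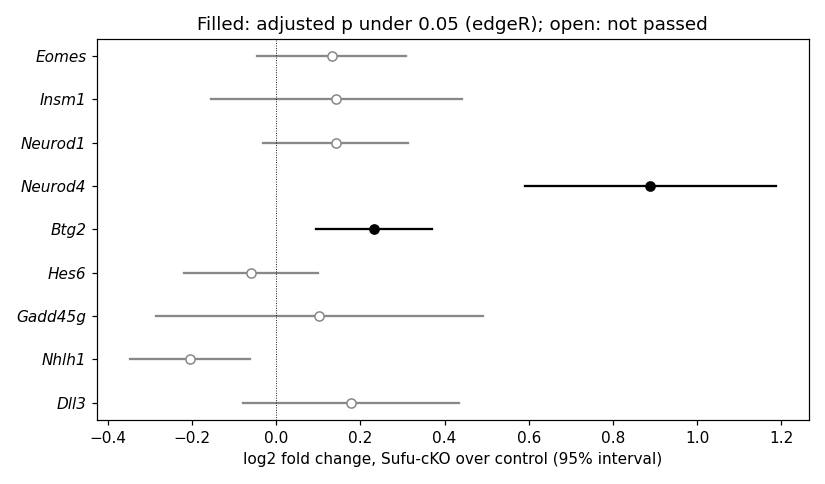
Log2 fold change of each gene, Sufu-cKO over control (horizontal axis), with its 95% interval. Filled points passed at an adjusted p under 0.05 (edgeR). Neurod4 stands at 0.89 and Btg2 at 0.23, and the other 7 lie between -0.20 and 0.18.

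Neurod4 (ENSMUSG00000048015, chromosome 10, 130268153 to 130280240, minus strand, GRCm38), which encodes a basic helix-loop-helix factor that promotes neuronal over glial fate, had the highest fold change of the set. It had 18.3, 17.6, 17.8 and 23.7 CPM in Mut_295, Mut_317, Mut_337 and Mut_340, against 12.7, 10.4, 8.47 and 10.2 CPM in Cont_294, Cont_345, Cont_365 and Cont_370. Every Sufu-cKO sample lay above every control sample, and Mut_340 stood apart at the top. The means were 19.4 ± 2.90 CPM in Sufu-cKO and 10.5 ± 1.73 CPM in control samples (SD, n = 4 each). The log2 fold change was 0.89 (SE 0.137, 95% interval 0.59 to 1.19; edgeR quasi-likelihood test, adjusted p = 0.0013), a 1.85-fold rise. It exceeded the log2 fold changes of 97.6% of all tested genes, and 246 of the 822 genes called higher rose by more. The call held whichever of the 8 samples was left out (edgeR, adjusted p from 0.00122 to 0.00619). In the authors' deposited table the fold change of Neurod4 was 1.85, with a false discovery rate of 3.15e-06.

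Neurod4 and Neurod1 are paralogs whose DNA-binding parts are alike, so it matters for the contrast between them how far their transcripts share sequence. Their longest identical run was 15 bases, within the coding sequence. The stretch of 90 coding bases around that run is shown for both genes from the GENCODE M21 transcripts, in reading frame, with the 28 bases that differ in capitals. It covers coding bases 361 to 450 of Neurod4 and 403 to 492 of Neurod1.
Neurod4: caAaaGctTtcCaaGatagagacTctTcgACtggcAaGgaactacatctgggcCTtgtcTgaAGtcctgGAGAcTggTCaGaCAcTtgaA
Neurod1: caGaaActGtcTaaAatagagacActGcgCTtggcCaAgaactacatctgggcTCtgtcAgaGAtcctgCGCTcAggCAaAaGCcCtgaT
Over 22 pairs of a member with a family relative, the longest identical run between their transcripts was 10 to 25 bases. Read length and the handling of reads that match several genes are not stated in the labels.

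Neurod1 (ENSMUSG00000034701, chromosome 2, 79452521 to 79456751, minus strand), the relative of Neurod4 that acts in intermediate progenitors and newborn neurons, was less changed. Its levels were 57.9, 72.6, 63.3 and 69.6 CPM in the Sufu-cKO samples, in the order of their numbers, and 56.8, 61.5, 64.6 and 55.9 CPM in the control samples. The groups overlapped, with Mut_295 near the lowest controls. The difference of 0.14 on the log2 scale (SE 0.079, 95% interval -0.03 to 0.31) did not pass (edgeR, adjusted p = 0.333), and a rise above 1.24-fold lay outside the interval. Neurod1 shares 201 exon bases with Cerkl on the same strand, which had 13 to 34 counts per sample, against at least 1655 counts for Neurod1.

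The unequal change of both paralogs was tested as a ratio of counts within each library, which does not depend on library scaling. All 5 ratios were chosen with earlier results of these data known and use the same counts as the edgeR fits. Their p-values are thus not separate support for the changes. Neurod4 counts came to 31.7%, 24.3%, 28.2% and 34.0% of Neurod1 counts in Mut_295, Mut_317, Mut_337 and Mut_340, against 22.4%, 17.0%, 13.1% and 18.4% in Cont_294, Cont_345, Cont_365 and Cont_370. The lowest Sufu-cKO sample lay above the highest control. The log2 ratio was -1.77 ± 0.214 in Sufu-cKO and -2.52 ± 0.319 in control samples (SD, n = 4 each), a difference of 0.75. An exact 2-sided permutation test gave p = 0.0286, the smallest that 4 samples against 4 allow, and an adjusted p = 0.0476 over the 5 ratios tested. The ratio of Neurod4 to Eomes differed by as much (0.76; exact permutation test, p = 0.0286, adjusted p = 0.0476), with 5.26% to 7.10% in Sufu-cKO samples and 2.76% to 4.48% in control samples. Both calls were lost without Cont_365 and without any 1 of the Sufu-cKO samples (exact permutation tests, adjusted p from 0.0714 to 0.0952), with differences of 0.62 to 0.84. The groups stayed without overlap in these fits. With 3 samples against 4 this test moves in coarse steps from 0.0286 upward, before adjustment over the 5 ratios. Loss of a call therefore cannot show that a difference rests on 1 sample.

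**Figure D3:**
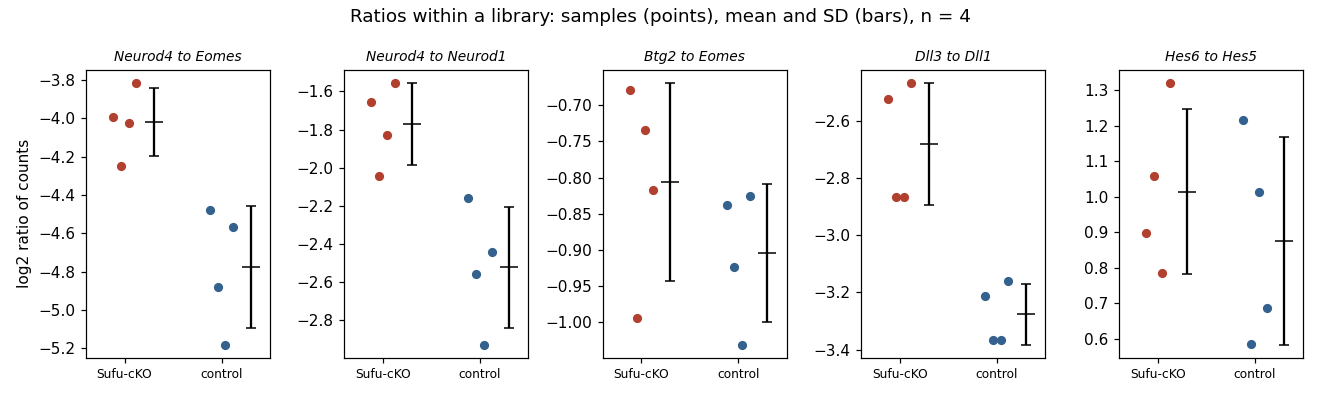
Log2 ratio of the counts of 2 genes in the same library (vertical axes, each with its own range and not from 0) in the 4 Sufu-cKO and the 4 control samples, with the mean and SD beside the points. The groups do not overlap for Neurod4 to Eomes, Neurod4 to Neurod1 and Dll3 to Dll1, and they overlap for Btg2 to Eomes and Hes6 to Hes5.

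Eomes (ENSMUSG00000032446, chromosome 9, 118478212 to 118486132, plus strand) itself, the defining gene of the set, had 292, 335, 290 and 334 CPM in the Sufu-cKO samples and 284, 307, 308 and 244 CPM in the control samples. The groups overlapped, and the lowest value belonged to Cont_370. On the log2 scale it was 0.13 higher in Sufu-cKO (SE 0.081, 95% interval -0.05 to 0.31), which did not pass (edgeR, adjusted p = 0.387), and the interval reached a 1.24-fold rise at most. The GENCODE annotation places 118 of its 4155 exon bases under an antisense gene, Gm33460. Since the strand setting of the counting is not given, reads there cannot be told apart.

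Btg2 (ENSMUSG00000020423, chromosome 1, 134075170 to 134079120, minus strand), also called Tis21, is an antiproliferative gene that turns on in progenitors about to make neurons. Its levels were 183, 168, 174 and 189 CPM in Mut_295, Mut_317, Mut_337 and Mut_340, against 159, 162, 151 and 137 CPM in Cont_294, Cont_345, Cont_365 and Cont_370. All Sufu-cKO samples lay above all control samples, by a small margin between Mut_317 and Cont_345. The rise was 1.17-fold (log2 fold change 0.23, SE 0.063; edgeR, adjusted p = 0.0342). The call held without Cont_345 (edgeR, adjusted p = 0.0455) or Mut_317 (0.0403) and was lost without Cont_294 (0.0531), Cont_365 (0.0938), Cont_370 (0.0929), Mut_295 (0.0567), Mut_337 (0.0626) or Mut_340 (0.0832), which leaves 1 member called higher in each of those 6 fits. In the authors' deposited table Btg2 had a false discovery rate of 0.148. Set against Eomes within each library, Btg2 counts lay between 50.2% and 62.4% in Sufu-cKO and between 48.9% and 56.4% in control samples, and a difference was not shown (exact permutation test, p = 0.257, adjusted p = 0.321).

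Nhlh1 (ENSMUSG00000051251, chromosome 1, 172052292 to 172057573, minus strand) encodes a basic helix-loop-helix factor of newly formed neurons and had the lowest log2 fold change of the set. It stood at 104, 121, 99.4 and 109 CPM in Mut_295, Mut_317, Mut_337 and Mut_340, against 117, 127, 128 and 127 CPM in Cont_294, Cont_345, Cont_365 and Cont_370. All Sufu-cKO samples lay below the control mean of 125 CPM, yet Mut_317 exceeded Cont_294, so the groups overlapped. The log2 fold change was -0.20 (SE 0.066, 95% interval -0.35 to -0.06) and did not pass (edgeR, adjusted p = 0.0709). It did pass as lower with DESeq2 (adjusted p = 0.0351), with upper-quartile factors (edgeR, 0.0422), with total counts in place of TMM factors (edgeR, 0.0421) and without Mut_317 (edgeR, 0.0252). In the authors' deposited table its false discovery rate was 0.273. Neurod4 and Nhlh1 thus had the highest and the lowest log2 fold changes of the set, and their profiles over the 8 samples were the least alike of all pairs (root mean square difference of centred log2 CPM 0.59). That distance includes the difference between genotypes and so follows in part from the fold changes themselves.

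The promoters of the genes at both ends of that order are shown from the RefSeq table on GRCm38.p6, each 250 bases before to 50 after a start site, on the gene's strand, with every match to the E-box CANNTG in capitals. The E-box is the core motif bound by basic helix-loop-helix factors. The Neurod4 window is chr10:130280205-130280504 and the Nhlh1 window chr1:172057547-172057846, both on the minus strand.
Neurod4: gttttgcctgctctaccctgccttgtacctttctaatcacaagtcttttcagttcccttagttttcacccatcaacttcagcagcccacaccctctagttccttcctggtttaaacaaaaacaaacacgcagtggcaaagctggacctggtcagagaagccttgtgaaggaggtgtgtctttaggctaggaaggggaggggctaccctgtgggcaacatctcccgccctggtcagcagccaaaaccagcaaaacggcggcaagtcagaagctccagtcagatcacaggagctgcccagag
Nhlh1: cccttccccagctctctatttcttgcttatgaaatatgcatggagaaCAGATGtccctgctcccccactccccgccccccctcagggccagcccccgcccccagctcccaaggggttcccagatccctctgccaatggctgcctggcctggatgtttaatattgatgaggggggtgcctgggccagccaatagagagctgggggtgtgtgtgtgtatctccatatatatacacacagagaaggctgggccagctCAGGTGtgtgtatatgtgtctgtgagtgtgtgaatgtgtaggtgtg
The Nhlh1 window holds 2 E-boxes, 1 of them the form CAGATG, and this Neurod4 window holds 0. A second Neurod4 window, at a start site further downstream, holds 1 E-box. The table had 10 windows for 8 of the 9 genes, and 7 of these windows held CANNTG, 1 held CAGATG and 0 held the GLI motif GACCACCCA, searched on both strands, with CAGATG a special case of CANNTG. Of all 32851 windows of this length, 72.3%, 17.2% and 0.253% held these motifs. Absence of these letters says nothing about binding elsewhere.

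Insm1 (ENSMUSG00000068154, chromosome 2, 146221921 to 146225020, plus strand), a zinc finger repressor that promotes the formation of intermediate progenitors, had 87.9, 78.5, 70.8 and 112 CPM in Mut_295, Mut_317, Mut_337 and Mut_340 and 74.1, 90.9, 77.5 and 73.7 CPM in the control samples. Mut_340 was the highest of the 8 and Mut_337 the lowest, so the control range lay inside the Sufu-cKO range. The difference of 0.14 on the log2 scale (SE 0.133) did not pass (edgeR, adjusted p = 0.608), and without Mut_340 it was -0.0047. Mut_340 was thus the sample with the highest level of Neurod4, Btg2 and Insm1 alike.

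Gadd45g (ENSMUSG00000021453, chromosome 13, 51846678 to 51848468, plus strand), a growth arrest gene induced in cells committed to neurogenesis, varied most within the groups. It had 39.7, 30.9, 26.4 and 25.1 CPM in the Sufu-cKO samples, in the order of their numbers, and 22.7, 34.2, 32.3 and 24.5 CPM in the control samples. The coefficient of variation was 21.6% in Sufu-cKO and 19.9% in control samples, and the groups overlapped over most of their range. The difference of 0.10 on the log2 scale (SE 0.173) did not pass (edgeR, adjusted p = 0.80), and it was -0.05 without Mut_295, the highest sample.

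Hes6 and Dll3 act on NOTCH signalling within the cell. Hes6 (ENSMUSG00000067071, chromosome 1, 91411483 to 91414038, minus strand), which counters the repressor HES1, had 101, 84.0, 84.9 and 83.4 CPM in the Sufu-cKO samples, against 92.3, 92.2, 98.3 and 86.1 CPM in the control samples. Mut_295 was the highest of all samples and the other Sufu-cKO samples were the lowest. The difference of -0.06 on the log2 scale (SE 0.073, 95% interval -0.22 to 0.10) did not pass (edgeR, adjusted p = 0.708). Set against Hes5, a repressor induced by NOTCH in radial glia, the log2 ratio was 1.02 ± 0.233 in Sufu-cKO and 0.88 ± 0.292 in control samples (exact permutation test, p = 0.486, adjusted p = 0.486, n = 4 each).

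Dll3 (ENSMUSG00000003436, chromosome 7, 28293553 to 28302238, minus strand), a divergent Delta protein that does not activate NOTCH in neighbouring cells, had 19.8, 15.2, 13.7 and 15.6 CPM in the Sufu-cKO samples and 14.3, 14.1, 13.0 and 15.5 CPM in the control samples. Mut_295 was high and the other 3 Sufu-cKO samples lay within or just above the control range. The difference of 0.18 on the log2 scale (SE 0.117) did not pass (edgeR, adjusted p = 0.427). Dll1, the Delta ligand that does activate NOTCH in neighbours, fell by 0.42 on the log2 scale (edgeR, adjusted p = 0.00509). Dll3 counts came to 17.4%, 13.7%, 13.7% and 18.1% of Dll1 counts in Mut_295, Mut_317, Mut_337 and Mut_340, against 10.8%, 9.69%, 9.70% and 11.2% in the control samples. The ratio was higher in every Sufu-cKO sample, by 0.60 on the log2 scale (exact permutation test, p = 0.0286, adjusted p = 0.0476). Without Cont_365 or any 1 of the Sufu-cKO samples this call too was lost (exact permutation test, adjusted p from 0.0714 to 0.0952). The limits given for the Neurod4 ratios, in their choice and in the coarse steps of the test, hold here too.

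**Figure D4:**
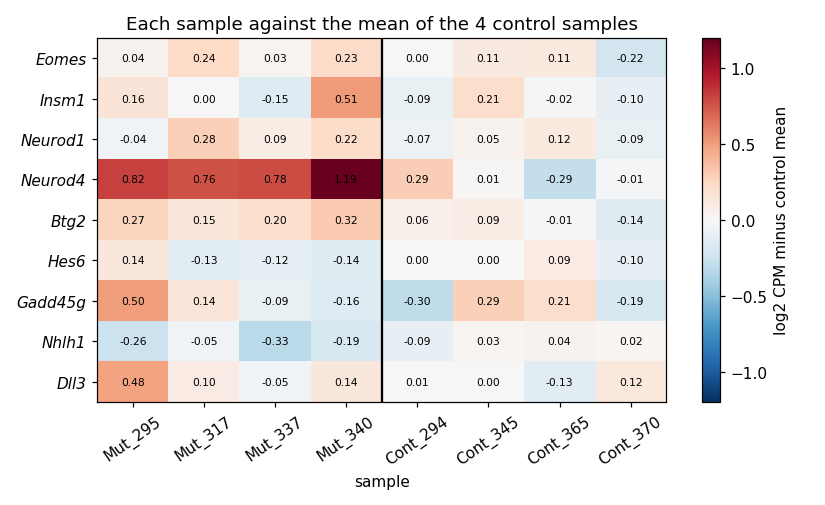
Log2 CPM of each gene (rows) in each sample (columns, Sufu-cKO left of the line) minus the mean of the 4 control samples, in colour and as printed numbers. Neurod4 lies between 0.76 and 1.19 in all Sufu-cKO samples, Btg2 between 0.15 and 0.32, and Mut_295 is high for Gadd45g and Dll3.

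Some samples lay on the same side of their genotype's mean for most of the 9 genes. Relative to its genotype's mean, Mut_337 was below for 9 of the 9 genes and above for 0. Cont_370 was below its genotype's mean for 7 genes and Cont_345 above for 8. The median deviation over the 9 genes was -0.11 in Mut_337, -0.10 in Cont_370 and 0.05 in Cont_345 on the log2 scale. Several of the Cont_345 deviations were thus close to 0, and the same counts over all tested genes are not given here. These are values relative to all counts of a library, and their origin was not tested. Eomes and Neurod1 had the most similar profiles of the 36 pairs among the 9 genes (root mean square difference 0.07), and Eomes and Btg2 followed (0.11).

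Per kilobase of exon, Eomes was the most abundant of the genes, with 75.3 ± 6.01 CPM per kb in Sufu-cKO and 68.7 ± 7.24 CPM per kb in control samples (SD, n = 4 each). Btg2 followed at 65.1 ± 3.37 CPM per kb in Sufu-cKO and 55.5 ± 3.98 CPM per kb in control samples, and lay below Eomes in all 8 samples. Hes6 (48.9 in Sufu-cKO and 51.0 in control samples) and Nhlh1 (43.9 in Sufu-cKO and 50.6 in control samples) did not separate, with Hes6 above Nhlh1 in 5 of 8 samples. Insm1 (28.2 in Sufu-cKO and 25.5 in control samples), Gadd45g (26.0 and 24.2, likewise) and Neurod1 (24.1 and 21.9) formed a lower tier in which neighbours also changed places between samples. Neurod4 and Dll3 were the least abundant, and their order differed by genotype. Neurod4 had 5.79 ± 0.866 and Dll3 5.64 ± 0.912 CPM per kb in Sufu-cKO samples, where each was above the other in 2 samples. In control samples Neurod4 had 3.13 ± 0.518 and Dll3 4.99 ± 0.357 CPM per kb, with Dll3 above in all 4.

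Other genes of the lineage changed in both directions. Of 14 further intermediate progenitor genes, all tested, 2 rose, 3 fell and 9 did not pass, with a median log2 fold change of -0.12. Among all tested genes 11.0% were called. Myt1, a zinc finger factor of neuronal differentiation, averaged 161 ± 6.69 CPM in Sufu-cKO and 124 ± 3.90 CPM in control samples (SD, n = 4 each), and Tfdp2, a partner of E2F factors, rose by 0.23 on the log2 scale. Neurog2, the proneural factor upstream of Eomes, fell by 0.48, Dll1 by 0.42, and Rnd2, a small GTPase of neuronal migration and a target of NEUROG2, by 0.38. Without Cont_345, Tfdp2 (edgeR, adjusted p = 0.0617) and Rnd2 (0.0510) lost their calls, which left 3 called, and Tfdp2 also lost it without Cont_365 (0.0588) or Cont_370 (0.0513). The 9 that did not pass had log2 fold changes from -0.34 (Unc5d) to 0.05 (Elavl4).

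Among 12 upstream regulators, 5 rose, 4 fell and 3 did not pass, with a median of -0.18, against 11.0% of all tested genes called. The proneural pair moved in opposite directions: Neurog1 averaged 25.7 ± 3.0 CPM in Sufu-cKO and 14.9 ± 1.62 CPM in control samples, and Neurog2 averaged 152 ± 15.0 CPM in Sufu-cKO and 212 ± 20.8 CPM in control samples (SD, n = 4 each). The log2 fold change of Neurog1 (0.79, SE 0.107; edgeR, adjusted p = 0.000528) was close to that of Neurod4 (0.89, SE 0.137). Pax6 (0.54) and Sox2 (0.58), transcription factors of radial glia, rose, and Emx2 (-0.72) and Lhx2 (-0.51), which pattern the cortical primordium, fell. Of the remaining calls, named after their values were seen, Tfap2c (0.30), an AP-2 factor of radial glia, rose, and Fezf2 (-0.43), a factor of cortical progenitors and deep-layer neurons, fell. Tfap2c lost its call without any 1 of Cont_294, Cont_365, Cont_370, Mut_295, Mut_317 or Mut_337 (edgeR, adjusted p up to 0.103), and Fezf2 without Cont_345, Cont_365 or Mut_340 (up to 0.0689).

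Relatives within the members' own gene families were tested in 17 of 18 cases, and 3 rose, 5 fell and 9 did not pass, with a median of -0.22. The share called among all tested genes was 11.0%. Neurog1, Neurog2 and Dll1 were already counted in the lists above, Neurog2 in both, so the lists are not separate sets of calls. The relatives of Btg2 differed from it: Btg1 fell to 48.1 ± 1.85 CPM in Sufu-cKO samples, against 62.0 ± 5.44 CPM in control samples, and Tob1 to 37.2 ± 2.07 CPM, against 47.4 ± 2.09 CPM (edgeR, adjusted p = 0.00523 and 0.00461). Both are antiproliferative proteins of the same family. Tbr1, the T-box relative of Eomes that is switched on after it in neurons, rose by 0.29 (edgeR, adjusted p = 0.00656). Named after their values were seen, Gadd45b, a relative of Gadd45g, fell to 1.39 ± 0.687 CPM in Sufu-cKO samples, against 3.54 ± 0.792 CPM in control samples, and Jag1, a NOTCH ligand, rose by 0.40 on the log2 scale with overlap. Gadd45b lost its call without Cont_365 (edgeR, adjusted p = 0.0557), and Jag1 without any 1 sample other than Cont_370 (edgeR, up to 0.148). Neurod2 (-0.22) and Neurod6 (-0.28), relatives of Neurod1 and Neurod4 in postmitotic neurons, did not pass (edgeR, adjusted p = 0.351 and 0.486). Of 10 postmitotic excitatory neuron genes 1 rose (Tbr1, also a family relative), 1 fell and 8 did not pass, with a median of -0.27. This compares with 11.0% of all tested genes called.

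**Figure D5:**
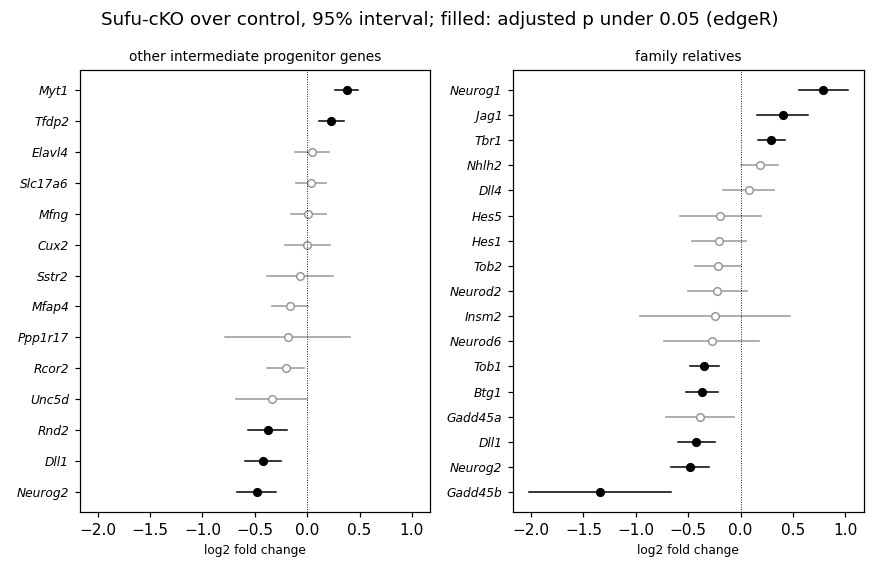
Log2 fold change, Sufu-cKO over control (horizontal axes), with its 95% interval, of each tested gene among the further intermediate progenitor genes (left) and the family relatives (right). Filled points passed at an adjusted p under 0.05 (edgeR). Of these genes 2 of 14 and 3 of 17 rose, and 3 and 5 fell, against 11.0% of all tested genes called. Neurog2 and Dll1 appear on both sides.

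Markers of other cells in the tissue were read beside these values. Of all 15382 tested genes, edgeR called 11.0%, DESeq2 called 2124 genes and limma-voom 1681. An unadjusted edgeR p under 0.05 was met by 22.5%, and 16.2% had groups without overlap. All 11 GABAergic lineage genes were tested, with 0 called higher and 0 lower by edgeR, 1 higher and 2 lower by an unadjusted p under 0.05 and by DESeq2, and 1 higher and 0 lower by limma-voom. Their median log2 fold change was 1.28, with 9 above 0 and 2 below, against 0.01 over all tested genes. Samples of the same genotype differed widely, so the absence of edgeR calls does not show that these genes were unchanged. Their summed level was 245, 81.1, 139 and 233 CPM in Mut_295, Mut_317, Mut_337 and Mut_340, and 80.5, 69.5, 96.9 and 167 CPM in Cont_294, Cont_345, Cont_365 and Cont_370. Mut_317 lay within the control range by this sum, and its Neurod4 level of 17.6 CPM was above that of every control sample. The sum was high in Mut_295, where Gadd45g, Dll3 and Hes6 were highest, and in Mut_340, where Neurod4, Btg2 and Insm1 were highest, and its part in those values was not tested. Of 9 radial glia genes, 4 of them also among the upstream regulators, 5 rose (Pax6, Sox2, Slc1a3, Vim and Nes) and 4 did not pass, all with log2 fold changes below 0 (Fabp7 -0.34, Hes1 -0.20, Hes5 -0.19 and Prom1 -0.15, the last with no overlap). At an unadjusted p under 0.05, 2 of the 9 were lower, and by DESeq2 1. The list had a sum of 3867 to 4047 CPM in Sufu-cKO and 2878 to 3119 CPM in control samples, most of it Vim and Nes. Cajal-Retzius genes (of 8, Ndnf higher and Reln lower) summed to 233 to 282 CPM in Sufu-cKO and 271 to 296 CPM in control samples, and choroid plexus genes (5 of 7 lower by edgeR, and 7 of 7 by DESeq2, by limma-voom and at an unadjusted p under 0.05, with no overlap for any of the 7) to 71.2 to 259 CPM in Sufu-cKO and 477 to 760 CPM in control samples. Endothelial genes (2 of 6 lower) summed to 216 to 259 CPM in Sufu-cKO and 253 to 298 CPM in control samples, and microglial genes (3 of 6 lower) to 28.8 to 36.0 CPM in Sufu-cKO and 37.2 to 49.7 CPM in control samples. Erythroid genes summed to 2864 to 3270 CPM in Sufu-cKO and 3327 to 4386 CPM in control samples, with 0 of 6 called by edgeR and limma-voom, 1 by DESeq2 and 3 at an unadjusted p under 0.05. The part of these shifts in the levels of the 9 genes was not tested.

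Genes with the most similar profile over the 8 samples were looked up for Eomes and Neurod4 among 9569 genes with at least 10 CPM on average. Among those nearest to Eomes were Zfp128, Socs5, Stim2 and Gpr45, with root mean square differences of 0.06 to 0.07 in centred log2 CPM, against a median of 0.17 over all candidates, and none of these 4 was called by edgeR. Those nearest to Neurod4 were Hectd2, Fam171b, Morc4, Frmd4b and Trmt2b (0.10 to 0.13, against a median of 0.49), with log2 fold changes from 0.78 to 0.96, all called by edgeR. The distance includes the difference between genotypes. Genes near Neurod4 were thus bound to share much of its fold change, and genes near Eomes to change little, so these calls follow largely from the selection. Hectd2 lost its call without Cont_345, Cont_370, Mut_295 or Mut_317 (edgeR, adjusted p up to 0.070). Neurod1, at 0.07 from Eomes, lay close to the same distance as these nearest genes.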

How the data were processed

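Libraries were made with a stranded mRNA kit, per the labels' protocols, and reads were aligned with STAR 2.4.2a to GRCm38, per the submitters' processing notes. How reads were counted, on which strand and against which annotation, and how the authors tested genes, is not stated in the labels or file headers. Raw counts per gene, as the authors deposited them, were tested here. A second table, also deposited, holds a normalised signal (the counts over a size factor for each sample) and the authors' fold change (a ratio), p-value and false discovery rate. Gene symbols and positions are those of that table.

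Counts were analysed with edgeR 4.0.16 in R 4.3.3: filterByExpr (minimum count 10, minimum total 15) left 15382 genes, libraries were scaled with TMM factors, and genotypes were compared with the robust quasi-likelihood F-test, 2-sided, adjusted over all tested genes. The SE was back-calculated from the F statistic. Ratios were log2((count + 0.5)/(count + 0.5)). Exon lengths are from GENCODE M21 and promoters from RefSeq. DESeq2 1.42.0, limma-voom (limma 3.58.1), other scalings and filters, and fits without each sample served as alternatives. The code was tested on simulated data. Every pair of samples within a group differed by more than sampling noise. No label ties samples to litters or separate embryos, and p-values thus cover only the spread among these samples, some of which may be technical.

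The members, lists and ratios were chosen with earlier results of these data known. Named genes were the 9 members, the called genes of each related list (at most 6, those of smallest p, and abundant members where fewer than 2 were called) and the 5 genes nearest to Eomes and Neurod4. List members named without having passed were chosen after their values were seen, and some genes that the rule would name are not reported here. Other cell type lists are given by counts and sums.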

Additional observations from a re-analysis of the deposited data

Results flagged for a closer look

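In 28 groups of 4 samples (the 9 genes and the 5 ratios in each genotype), 3 held a sample that stood apart by Dixon's criterion, which chance meets in about 1 in 20 groups. Neurod4 was highest in Mut_340, at 23.7 CPM. Hes6 was highest in Mut_295, at 101 CPM. Nhlh1 was lowest among the control samples in Cont_294, at 117 CPM. Without Mut_340 the log2 fold change of Neurod4 was 0.77 and was still called by edgeR (range over all alternatives 0.77 to 0.99).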

How the results depend on the processing

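Neurod4 was called higher in all 16 alternative fits, with log2 fold changes from 0.77 to 0.99. Btg2 was called in 10 of 16, and lost its call when any of 6 samples was left out. The number of members called higher was 2 under all 8 other settings and 1 to 2 when 1 sample was left out. The number called lower was 1, Nhlh1, with upper-quartile factors, with total counts only and with DESeq2, and 0 to 1 when 1 sample was left out. With 1 sample left out the log2 fold change of Insm1 ran from -0.0047 (without Mut_340) to 0.22 and that of Gadd45g from -0.052 (without Mut_295) to 0.20, neither of them ever called. Postmitotic excitatory neuron genes called numbered 4 with DESeq2, 1 with limma-voom, 1 without robust estimation, and 1 to 4 with 1 sample left out. Further intermediate progenitor genes called ranged from 3 to 6, family relatives from 6 to 8, upstream regulators from 6 to 8, and all genes called from 1079 (without Cont_345) to 1836 (without Mut_295), with 1 sample left out. In the same fits the ratio differences ran from 0.62 to 0.85 (Neurod4 to Eomes), 0.62 to 0.87 (Neurod4 to Neurod1) and 0.52 to 0.66 (Dll3 to Dll1). Each was called by the exact permutation test in 3 of these 8 fits, with adjusted p up to 0.0952, where 3 samples against 4 allow p = 0.0286 at the smallest. Among other named genes, Hectd2 lost its call with no low-count filter (adjusted p = 0.0911 by edgeR), and Jag1 with upper-quartile factors (0.0636), total counts only (0.0734) and a filter of 1 CPM in 4 samples (0.0537). No paired analysis was possible because the labels name no litter or pairing. The genotypes share no replicate numbers, which does not show whether samples of both genotypes came from the same litter. Neurod4 and Dll3 had the fewest counts of the 9 genes, and their values are limited most by depth.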
